A study of Mus musculus with 32 samples.

Results

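The alkaline phosphatase genes Alppl2, Alpi, Alpl and Akp3 were followed through the egg, the early 2-cell embryo and the late 2-cell embryo of the mouse, with and without the transcription factor p53. These 4 genes were looked up by symbol among the 54532 genes of the authors' deposited FPKM table. The members were chosen by measured values, namely the steep rise in FPKM of Alppl2 and Alpi at the activation of the embryonic genome, so values across the stages are given as a description, with no test. Tests are given for the genotype, which the choice did not use. FPKM is the number of reads relative to gene length and library depth.

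RNA was measured in 32 libraries, each from an individual egg or embryo. Eggs at metaphase II numbered 3 labelled Trp53 KO and 3 WT, early 2-cell embryos 6 labelled Trp53 MZ-KO and 8 WT, and embryos at the late 2-cell stage 6 of each genotype. MZ-KO embryos came from Trp53 KO mothers and Trp53 KO fathers, so they lacked the maternal and the zygotic gene product by design. The KO allele was made from a Trp53 allele floxed around exons 2 to 10 with a Ddx4::Cre driver, which acts in the germline, and the WT controls were Trp53 flox/flox animals, so they carried the loxP sites too. All animals were of a mixed Bl6/C57 background, and their age is not given in the sources used here. Early embryos were taken 28 to 32 hours and late embryos 48 hours after the ovulation hormone hCG, and embryos were kept in KSOM culture medium before harvest. Nothing used here says which embryos were siblings, so p-values reflect how much single eggs or embryos vary, which may be partly technical.

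Alkaline phosphatases are zinc enzymes that release phosphate from organic phosphates, and most are held on the outer face of the cell by a glycosylphosphatidylinositol (GPI) anchor. Alppl2 encodes the embryonic form, known from the preimplantation mouse embryo, Alpi and Akp3 encode intestinal forms, and Alpl encodes the tissue-nonspecific form of bone, liver and kidney, which splits pyrophosphate and pyridoxal phosphate. Alkaline phosphatase activity is a classical stain for pluripotent stem cells and germ cells. In the mouse, Alppl2, Alpi and Akp3 lie side by side, while Alpl lies on another chromosome.

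In build mm10 with the GENCODE M21 annotation, Alppl2 (ENSMUSG00000026246) is a protein-coding gene at chr1:87086694-87089928 on the minus strand. Alpi (ENSMUSG00000079440) lies at chr1:87098002-87101606 on the minus strand, Akp3 (ENSMUSG00000036500) at chr1:87124973-87127912 on the plus strand, and Alpl (ENSMUSG00000028766) at chr4:137741733-137796384 on the minus strand. The coding sequences of the 3 clustered genes were close relatives: Alppl2 and Alpi were identical at 81.7% of aligned bases, Alpi and Akp3 at 81.8% and Alppl2 and Akp3 at 78.5%. Alpl shared 65.1 to 66.3% with them. Long exact matches between their transcripts were few. Of 2288 windows of 50 bases in the Alpi transcript, 1 was found in Alppl2, 35 in Akp3 and 19 in the neighbouring pseudogene Akp-ps1. How reads with mismatches were placed among these genes was not tested.

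The promoters of the 3 clustered genes are shown because Alppl2 and Alpi came up together in these embryos and Akp3 did not. Each runs from 250 bases before to 50 bases after the gene start, read 5′ to 3′ on the strand of the gene, from RefSeq for build GRCm38.p6. Alppl2 is at chr1:87089879-87090178 (minus strand), Alpi at chr1:87101557-87101856 (minus strand) and Akp3 at chr1:87124704-87125003 (plus strand). Capitals mark the exact stretches of 8 or more bases that all 3 promoters hold. 
Alppl2: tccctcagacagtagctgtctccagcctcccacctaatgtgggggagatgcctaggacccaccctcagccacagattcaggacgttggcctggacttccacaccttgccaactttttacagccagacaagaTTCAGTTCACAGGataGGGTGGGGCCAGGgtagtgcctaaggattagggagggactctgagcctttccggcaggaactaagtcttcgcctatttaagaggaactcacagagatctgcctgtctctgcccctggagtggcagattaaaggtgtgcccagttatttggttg
Alpi: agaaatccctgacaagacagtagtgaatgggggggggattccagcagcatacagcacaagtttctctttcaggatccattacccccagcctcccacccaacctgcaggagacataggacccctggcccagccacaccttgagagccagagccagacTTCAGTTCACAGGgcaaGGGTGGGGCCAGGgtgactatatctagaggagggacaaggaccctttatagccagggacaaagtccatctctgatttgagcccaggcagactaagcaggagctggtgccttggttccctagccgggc
Akp3: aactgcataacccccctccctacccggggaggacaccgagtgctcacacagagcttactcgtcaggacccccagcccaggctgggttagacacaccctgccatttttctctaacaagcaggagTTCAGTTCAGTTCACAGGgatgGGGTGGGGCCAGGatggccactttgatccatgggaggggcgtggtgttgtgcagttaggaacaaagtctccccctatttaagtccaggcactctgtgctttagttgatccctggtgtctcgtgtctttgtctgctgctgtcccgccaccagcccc

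The capitals form 2 blocks, TTCAGTTCACAGG and GGGTGGGGCCAGG, which stand close together in this order in all 3 promoters. In Akp3 the start of the first block is repeated, so its run of capitals is longer. Searched on both strands, the first was found in 10 of 32544 promoters of this length (0.0307%) and the second in 16 (0.0492%). The second block contains GGGTGGGGC, a letter pattern of the kind bound by Klf factors, which 2.85% of promoters hold and which both Alpl promoters lack. Among the 3 genes shown above, the TATA box core TATAAA was found in Alpi only (13.6% of all promoters), there on the strand opposite the gene. TATTTAA was found in Alppl2 and Akp3 (4.49%), on the strand of the gene. TAATCC, the core read by Otx-type homeobox factors, was found in Alppl2 (7.06%). For Alpl the window of the gene's outermost start was searched, and the window of its inner start, which RefSeq also lists, holds TATAAA and TAATCC and lacks the other patterns. AAGGTCA, a core read by Nr5a-type receptors (4.71%), and the Dux-type site (0.0338%) were found in none of the 4 promoters. The p53 consensus was not found in these 4 windows either, as the full site (0.0737% of promoters) or as a lone decamer of it (8.36%). These are matches of letters in a window and say nothing about binding. The blocks are common to Akp3 and to Alppl2 and Alpi, whose RNA behaved differently in the values that follow.

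The reads behind the scale of a library numbered 7210000 to 27600000 (median 18300000), and 9013 to 9745 genes reached FPKM 1 in late MZ-KO embryos and 7989 to 9417 in late WT embryos. Trp53 itself averaged 8.19 ± 1.75 FPKM in KO and 7.86 ± 2.13 in WT eggs (SD, n = 3 each), 0.769 ± 0.326 in MZ-KO (SD, n = 6) and 6.05 ± 2.64 in WT early embryos (SD, n = 8), and 2.82 ± 1.38 in MZ-KO and 3.24 ± 2.31 in WT late embryos (SD, n = 6 each). Its level therefore matches the labels in early embryos and goes against them in eggs and late embryos, where each direction given here rests on the labels. Early WT library 3 stood apart from its group, as the highest in Alppl2, Alpi and Akp3. Early genotype differences and correlations that rest on it are given with and without it, while group means and their ratios include it.

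Alppl2 was near 0 in eggs, low in early embryos and among the most abundant transcripts in late embryos. Its FPKM was 0.046, 0 and 0 in KO eggs, and 0.79, 0.084 and 0.874 in WT eggs. It ran from 1.217 to 7.566 (median 3.96) in early MZ-KO embryos and from 1.117 to 12.344 (median 2.55) in early WT embryos. The early genotypes overlapped over most of their range, and early WT library 3 stood highest. In late MZ-KO embryos Alppl2 measured 295.94, 170.234, 407.816, 263.069, 477.288 and 304.497 FPKM, against 781.353, 1045.961, 878.131, 840.145, 793.735 and 841.855 in late WT embryos. Every late embryo was above every early embryo, and every late MZ-KO embryo was below every late WT embryo.

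**Figure D1:**
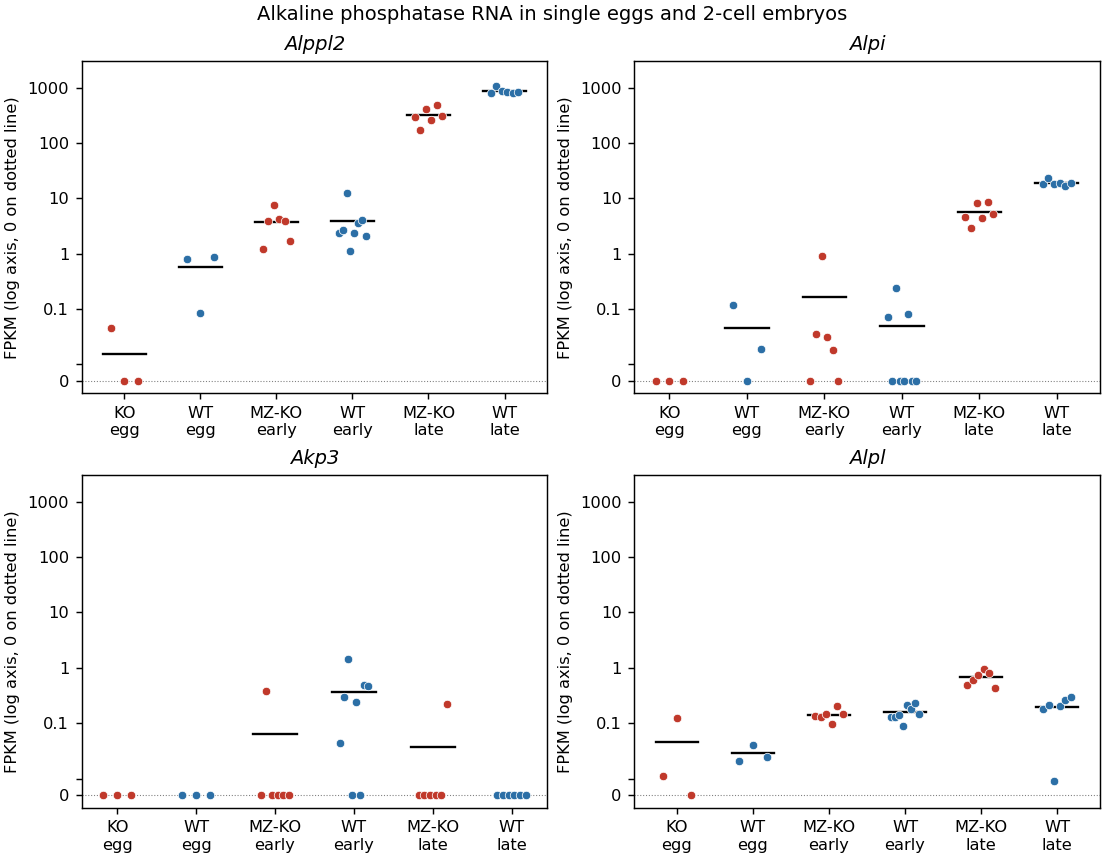
FPKM of the 4 genes in each egg or embryo (points) with the group mean (black line) on a log axis, where values of 0 stand on the dotted line and groups run from egg to late 2-cell embryo. Late MZ-KO embryos lie between 170.234 and 477.288 for Alppl2, below all late WT embryos (781.353 to 1045.961), while for Alpl the late MZ-KO embryos lie above all late WT embryos.

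The mean FPKM of Alppl2 was 84.8 times as high in late as in early MZ-KO embryos and 226 times as high in WT embryos, a difference of 6.14 in MZ-KO and 7.70 in WT on the log2(FPKM + 1) scale. The step from egg to early embryo was smaller, at 1.43 in WT (6.57 times the mean FPKM). The early WT mean in these ratios includes library 3, at 12.344 FPKM against a group median of 2.55. By mean FPKM Alppl2 ranked 102 among the 54532 genes in late MZ-KO embryos and 34 in late WT embryos. FPKM here counts a gene's introns in its length, so such ranks favour compact genes. In order of mean level, late WT embryos came first, then late MZ-KO embryos, then the early groups, which did not differ beyond their spread, then WT eggs and KO eggs.

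Alpi also stood highest in late embryos, at a far lower level than Alppl2, but had no step from egg to early embryo. It was 0 in all 3 KO eggs, and 0.118, 0 and 0.019 FPKM in WT eggs. In early embryos it ran from 0 to 0.901 (median 0.025) in MZ-KO and from 0 to 0.24 (median 0) in WT. These early values rest on 68 reads in all for the 6 MZ-KO embryos and 26 reads for the 8 WT embryos. In late MZ-KO embryos Alpi measured 4.593, 2.952, 8.361, 4.471, 8.434 and 5.278 FPKM, against 18.166, 23.389, 18.496, 18.889, 16.55 and 19.243 in late WT embryos. The late groups were apart from each other and from all earlier libraries. Their mean was 34.4 times the early mean in MZ-KO and 389.8 times in WT. Both early means were set largely by 1 library, as library 3 held 63 of the 68 reads in MZ-KO and 17 of the 26 in WT. The ratios are therefore not compared between the genotypes. Eggs and early embryos did not differ beyond their spread in Alpi.

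Akp3, the neighbour of Alpi on its other side, did not share the late level. It was listed at 0 in all 6 eggs and in all 6 late WT embryos, where 0 reads allow no more than 3 per library. Of the late MZ-KO embryos 1 had a value (library 6, 0.221 FPKM from 7 reads), and of the early MZ-KO embryos 1 (library 2, 0.377 FPKM from 17 reads). Early WT embryos ran from 0 to 1.419 FPKM (median 0.272), with 6 of 8 embryos above 0 and library 3 highest. Early MZ-KO embryos averaged 0.0628 ± 0.154 FPKM (SD, n = 6) and early WT embryos 0.372 ± 0.467 FPKM (SD, n = 8). The log2 difference was -0.32, which an exact two-sided permutation test did not separate from 0 (p = 0.119, adjusted p = 0.316). Without early WT library 3 it was -0.19 (exact permutation, adjusted p = 0.448).

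Alpl, the tissue-nonspecific form, was present at a low level at every stage and kept it from early to late in WT but not in MZ-KO embryos. Its FPKM was 0.011, 0.125 and 0 in KO eggs and 0.021, 0.041 and 0.025 in WT eggs. In early embryos it ran from 0.098 to 0.208 (median 0.139) in MZ-KO and from 0.088 to 0.234 (median 0.144) in WT, with wide overlap. In late MZ-KO embryos it measured 0.498, 0.596, 0.731, 0.955, 0.818 and 0.438, against 0.18, 0.214, 0.009, 0.203, 0.265 and 0.294 in late WT embryos. All late MZ-KO embryos were above all late WT embryos, and the late WT embryos overlapped the early ones. The mean in late embryos over that in early embryos was 4.71 in MZ-KO and 1.23 in WT.

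The comparison of MZ-KO with WT late embryos asks whether loss of p53 alters the RNA present after genome activation. Alppl2 averaged 319.8 ± 109 FPKM in MZ-KO and 864 ± 96.1 FPKM in WT late embryos (SD, n = 6 each), so MZ-KO embryos had 37% of the WT mean. The difference was -1.50 on the log2(FPKM + 1) scale (SE 0.21, 95% interval -1.95 to -1.04, adjusted p = 0.000303, limma over 8772 genes). Alpi averaged 5.68 ± 2.24 FPKM in MZ-KO and 19.1 ± 2.29 FPKM in WT late embryos (SD, n = 6 each), 29.7% of the WT mean. Its difference was -1.65 (SE 0.21, interval -2.11 to -1.19, adjusted p = 0.000181). Both were lower in all 6 MZ-KO embryos than in any WT embryo. The share of all genes whose late groups do not overlap is not given here. Such a separation, here or in Alpl, is therefore not shown to be particular to these genes. Alppl2 and Alpi are the 2 members that passed the filter of FPKM 1 in at least 6 of the 12 libraries. They passed it in every late embryo of either genotype.

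Calls were common in this comparison. Of the 8772 genes tested, 31.9% were called at an adjusted p below 0.05, with 18.5% higher and 13.4% lower in MZ-KO. Median-ratio scaling of the libraries moved the median difference of all genes from 0.07 to -0.08 and the split from 1624 higher and 1178 lower to 1097 higher and 1628 lower. Under it Alppl2 differed by -1.70 and Alpi by -1.83. By size, Alpi ranked 208 and Alppl2 268 among the 1178 genes called lower. Leaving out any single embryo gave differences of -1.63 to -1.33 for Alppl2 and -1.76 to -1.51 for Alpi, all of them called. FPKM is a share of a library, so less RNA of a gene and more RNA of other genes cannot be told apart, nor can fewer expressing cells within an embryo and less RNA per cell.

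Alpl moved the other way in late embryos. It averaged 0.673 ± 0.198 FPKM in MZ-KO and 0.194 ± 0.0999 FPKM in WT late embryos (SD, n = 6 each), a ratio of 3.47. The log2(FPKM + 1) difference was 0.48, and an exact two-sided permutation test gave p = 0.00216, the smallest that 6 against 6 embryos can give (adjusted p = 0.0173 over the 8 member tests of this kind). With a pseudocount of 0.1 the same difference was 1.46. Alpl did not reach the filter because its FPKM is spread over a span of 54652 bases with 4033 bases of exon. In limma without a filter the difference was 0.48 (SE 0.10, adjusted p = 0.0125). The values rest on 258 to 1234 reads per late MZ-KO embryo and 10 to 294 per late WT embryo, and reads from exons and introns cannot be told apart in them. Late WT library 3, with 10 reads, was the lowest, and leaving out any single embryo kept the difference between 0.43 and 0.52.

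In the authors' deposited table, which gives their own comparison as WT over MZ-KO late embryos by inference from its values, the log2 fold change was 1.65 for Alppl2 (SE 0.22, adjusted p = 5.46e-12) and 1.96 for Alpi (SE 0.25, adjusted p = 3.51e-13). In the authors' deposited table Alpl was at -1.61 (SE 0.51, adjusted p = 0.0118), and Akp3 at -3.21 (SE 3.04) with no adjusted p-value. That ratio runs opposite to the differences above, so a positive value means lower in MZ-KO.

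With exon length in place of span, on the assumption that all reads are exonic, Alpl came close to Alpi in late MZ-KO embryos and stayed well below it in late WT embryos. Alppl2 then had an exon-based FPKM of 458 ± 156 in MZ-KO and 1238 ± 138 in WT late embryos (SD, n = 6 each). Alpi had 8.76 ± 3.45 in MZ-KO and 29.5 ± 3.55 in WT, and Alpl 9.11 ± 2.67 in MZ-KO and 2.63 ± 1.35 in WT late embryos (SD, n = 6 each). On this scale the ratio of Alpl to Alpi was 1.16 ± 0.523 in MZ-KO late embryos (median 0.902) and 0.0902 ± 0.049 in WT late embryos (median 0.0907; SD, n = 6 each). Late MZ-KO libraries 2 (1.77) and 4 (1.88) lay above 1, and the other 4 ran from 0.729 to 0.952, so Alpi was the higher gene in most late MZ-KO embryos and in all 6 late WT embryos. Alppl2 held 96.1% ± 0.83 of the summed level of the 4 genes in MZ-KO and 97.5% ± 0.172 in WT late embryos (SD, n = 6 each).

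**Figure D2:**
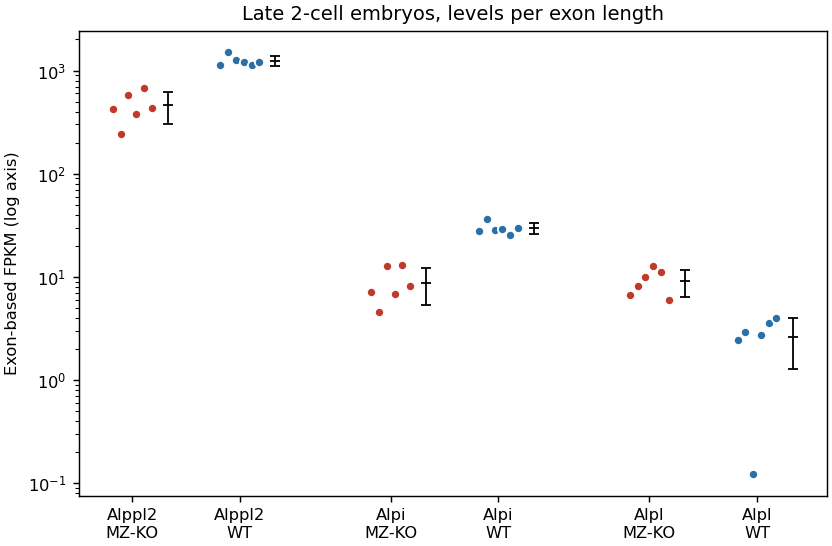
Levels of Alppl2, Alpi and Alpl in late 2-cell embryos as exon-based FPKM on a log axis, with each embryo as a point and mean ± SD beside it (n = 6 per group). Alppl2 and Alpi are lower in MZ-KO than in WT embryos, and Alpl is higher, with a mean of 9.11 in MZ-KO against 2.63 in WT.

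The same comparison was made in early embryos, before the main wave of embryonic transcription. Alppl2 averaged 3.77 ± 2.26 FPKM in MZ-KO (SD, n = 6) and 3.83 ± 3.56 FPKM in WT early embryos (SD, n = 8), a log2 difference of 0.07 (SE 0.37, interval -0.73 to 0.87, adjusted p = 0.941 in limma). A change of up to about that interval in either direction was not detectable with these embryos. Without early WT library 3, the highest embryo, the difference was 0.31 (adjusted p = 0.589), and without early MZ-KO library 3 it was -0.13 (adjusted p = 0.882). For Alpi the difference was 0.11, and 0.14 without early WT library 3. Exact permutation tests gave p = 0.627 (adjusted p = 0.836) for Alpi and p = 0.536 (adjusted p = 0.836) for Alpl. In this comparison 3.28% of 7675 genes were called, and Alppl2, the only member that reached the filter, was not.

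In eggs, where RNA is maternal, no member reached the filter of FPKM 1 in at least 3 libraries, and 0.333% of 6607 genes were called. Alppl2 rested on 2, 0 and 0 reads in KO eggs and on 54, 6 and 42 reads in WT eggs. These groups did not overlap, but 3 against 3 eggs cannot give a p below 0.1 in an exact two-sided permutation test, which is the value it gave (adjusted p = 0.316). Alpi (exact permutation p = 0.4, adjusted p = 0.8) and Alpl (p = 1, adjusted p = 1) overlapped between the genotypes.

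The genotype difference was also compared between the stages. For Alppl2 the late difference minus the early difference was -1.56 (SE 0.47, interval -2.52 to -0.60, adjusted p = 0.0189 in limma over 11558 genes), a call lost with a pseudocount of 0.1 (adjusted p = 0.0587) and with no filter (adjusted p = 0.0514). For Alpi it was -1.76 (SE 0.24, adjusted p = 2.04e-05). Alpi passed this filter through late embryos and was at 0 in 7 of the 14 early libraries, so its early difference is held near 0 on this scale and the value largely repeats the late difference of -1.65. For Alpl, which needs the fit without a filter and was also low in early embryos, it was 0.50 (SE 0.09, adjusted p = 0.00143). In this contrast 20.4% of genes were called, and 8.40% were called lower.

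Alppl2 and Alpi varied together among late MZ-KO embryos, and less firmly among late WT embryos, where the rank correlation did not pass. Among late MZ-KO embryos, their log2 levels had a Pearson r of 0.975 (exact permutation p = 0.00139, adjusted p = 0.00556) and a Spearman rho of 1 (exact p = 0.00278, adjusted p = 0.0111), and r was still 0.975 without the 2 embryos farthest from the Alppl2 median. Among late WT embryos r was 0.922 (exact permutation p = 0.0264, adjusted p = 0.0352) and rho 0.771 (exact p = 0.103, adjusted p = 0.125), with r at 0.744 without the 2 farthest. Library 2 was the lowest of the late MZ-KO embryos in both genes. Library 2 of the late WT embryos was the highest in both and stood apart from its group in Alppl2, so the WT relation leans on it. In early MZ-KO embryos r was 0.718 (exact permutation p = 0.0111, adjusted p = 0.0222) and rho 0.812 (exact p = 0.0722, adjusted p = 0.125), with r at 0.996 without the 2 farthest. Of the 68 Alpi reads of this group 63 were in library 3, and the other 5 embryos had 0 to 2 each, with an r of 0.911, too few reads to carry a relation. In early WT embryos r was 0.85 (exact permutation p = 0.0357, adjusted p = 0.0357) and rho 0.6 (exact p = 0.125, adjusted p = 0.125). There r was 0.175 without the 2 farthest, and 0.307 without library 3 alone, which had 17 of the 26 Alpi reads. The relation in early WT embryos therefore rests on those embryos. The values of a library share its depth scale, and p-values were adjusted over these 4 groups.

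Alpi was also set against Alppl2 within each late embryo. Alpi measured 1.76% ± 0.163 of the Alppl2 FPKM in MZ-KO late embryos, with a range of 1.55 to 2.05%, and 2.22% ± 0.095 in WT late embryos, with a range of 2.09 to 2.32% (SD, n = 6 each). The ranges did not overlap, and the means differed by -0.46 percentage points. This ratio was chosen after its values were seen and is given as a description. Alppl2 also spread more widely among late MZ-KO embryos, with a coefficient of variation of 33.9% in MZ-KO and 11.1% in WT, and so did Alpi, with 39.4% in MZ-KO and 12% in WT. The difference in spread was not tested.

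**Figure D3:**
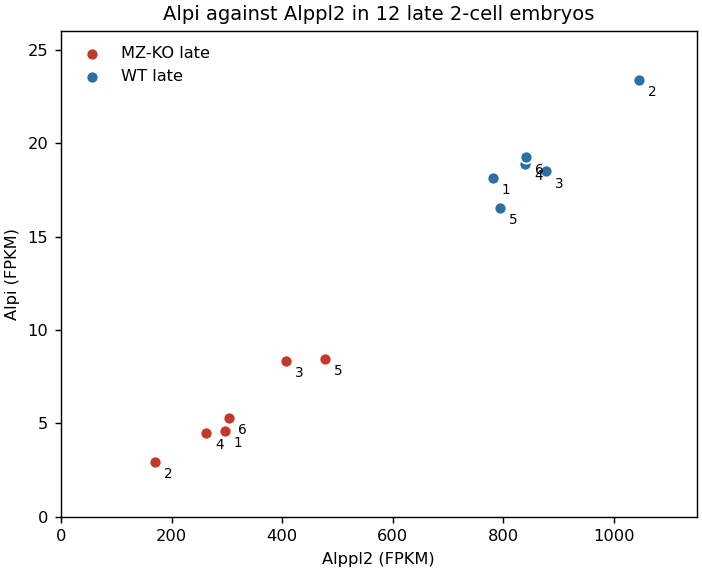
Alpi against Alppl2, both in FPKM on linear axes, in the 12 late 2-cell embryos, numbered within their group. The 6 MZ-KO embryos lie at 170.234 to 477.288 for Alppl2 and 2.952 to 8.434 for Alpi, apart from the 6 WT embryos at the upper right.

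In late embryos the surroundings of the cluster were low, apart from a gene that shares its reads. Gm29371, a lincRNA gene of 16248 bases on the plus strand, contains all of Alppl2, and reads were counted without regard to strand. The reads counted for Alppl2 made up 99.5% or more of those counted for Gm29371 in the 12 late libraries, so its late difference of -1.48 (limma adjusted p = 0.000337) is nearly all Alppl2 signal, and transcription on the other strand over Alppl2 itself cannot be told apart from it. Of the 9 other genes within 100 kb of the cluster, 2 were at 0 in all 32 libraries, and the highest value in any late embryo was 1.319 FPKM, in Ecel1, which encodes an endopeptidase-like membrane protein. Akp-ps1, an alkaline phosphatase pseudogene beside Alppl2, averaged 0.0572 FPKM in MZ-KO and 0.17 FPKM in WT late embryos and shares 19 windows of 50 bases with Alpi. Chrng, a subunit gene of the muscle acetylcholine receptor at 120.36 kb from Alppl2, had an early level of its own, with 2.4 FPKM in MZ-KO and 2.05 FPKM in WT early embryos, but only 0.0242 FPKM in MZ-KO and 0.132 FPKM in WT late embryos.

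**Figure D4:**
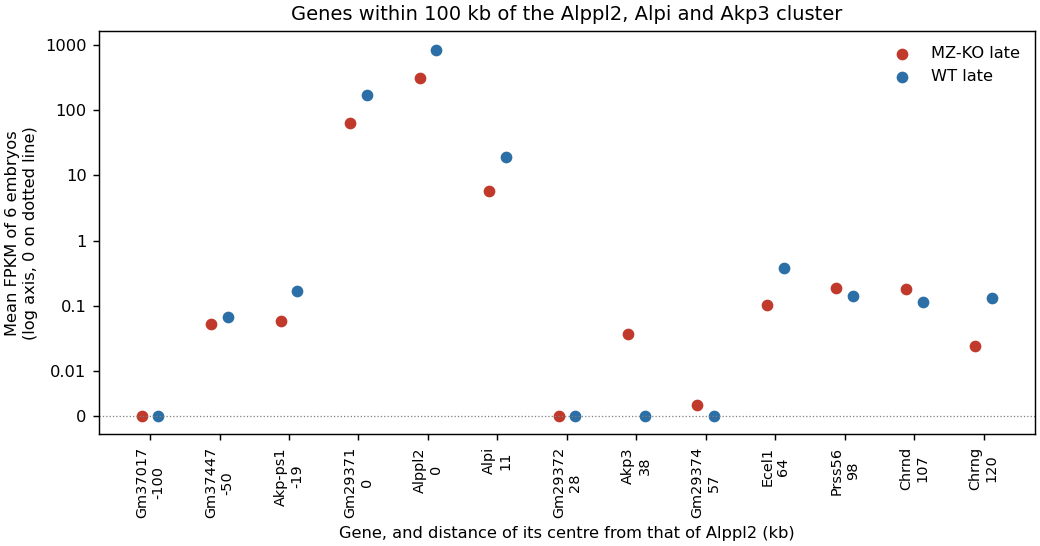
Mean FPKM in 6 late MZ-KO and 6 late WT embryos on a log axis for the genes in and around the cluster, in chromosome order, with the distance of each gene's centre from that of Alppl2 in kb. Alppl2, the overlapping Gm29371 and Alpi stand out, and all other genes average below 1 FPKM.

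Across all 32 libraries, the genes most like Alppl2 in log2(FPKM + 1), of 11920 compared, were Gm29371 (r = 0.9944), the ribosomal RNA processing gene Imp3 (0.9867), 9330159M07Rik (0.9863), Trim43c (0.9862) and the phosphorylase kinase gene Phkg1 (0.9861). Those most like Alpi were Pramel7 (0.9866), the nuclear receptor gene Nr5a2 (0.9862), the nuclear import gene Kpna1 (0.985), the kinase gene Hipk1 (0.9845) and Zscan5b (0.9844). The r between Alppl2 and Alpi was 0.9668. These correlations span the step from early to late embryos and are given as a description. The companions differed widely in level. In late embryos Imp3 averaged 215 FPKM in MZ-KO and 349.8 in WT, Trim43c 36.5 in MZ-KO and 71 in WT, Pramel7 26.4 in MZ-KO and 126 in WT, and Nr5a2 1.77 in MZ-KO and 3.8 in WT.

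Genes that serve alkaline phosphatases were followed in lists made from general knowledge. An alkaline phosphatase needs the GPI anchor, which is built by Pig and Dpm proteins and attached by a complex that includes Gpaa1. In late embryos, 3 of 15 tested genes of GPI anchor synthesis were called higher in MZ-KO than in WT and 0 lower. Of all genes tested 18.5% were called higher and 13.4% lower, so the share of higher genes is near that of all genes. The list median was 0.36 against 0.07 over all 8772 genes. Dpm3, a subunit of the mannose donor synthase, averaged 2.64 ± 0.473 FPKM in MZ-KO and 1.11 ± 0.298 in WT late embryos (SD, n = 6 each), a log2 difference of 0.79 (adjusted p = 0.00176). Pgap2, which remodels the lipid of the anchor, averaged 3.18 ± 0.549 FPKM in MZ-KO and 1.49 ± 0.673 in WT late embryos (SD, n = 6 each), a difference of 0.78 (adjusted p = 0.00764). Gpaa1 differed by 0.87 (adjusted p = 0.041), a call lost without any 1 of 7 of the embryos (adjusted p up to 0.0907), with a pseudocount of 0.1 (adjusted p = 0.059), with no filter (adjusted p = 0.122) and with median-ratio scaling (adjusted p = 0.0607). Gpaa1 reached FPKM 1 in 5 late MZ-KO and 2 late WT embryos, so it entered the test mainly through MZ-KO. With median-ratio scaling 2 genes of the list were called higher in MZ-KO and 1 lower.

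From early to late embryos the same list moved both ways. In MZ-KO embryos 8 of 15 tested genes rose and 4 fell, and in WT embryos 6 of 12 rose and 5 fell, where 81.7% of all genes tested were called in MZ-KO (48.3% higher and 33.3% lower) and 85.0% in WT (46.6% higher and 38.4% lower). In MZ-KO median-ratio scaling moved the median stage difference of all genes from 0.39 to 0.11, and 8 genes of the list rose and 5 fell. The largest rise in both genotypes was in Dpm1, the catalytic subunit of the mannose donor synthase, with 3.11 in MZ-KO and 3.18 in WT. It averaged 10.6 ± 1.37 FPKM in MZ-KO and 11.7 ± 1.19 in WT late embryos (SD, n = 6 each). Pigm and Pigh also rose, by 2.24 and 1.96 in MZ-KO and by 1.85 and 1.75 in WT. Pigc, which acts in the first step of anchor synthesis, fell in both (-3.29 in MZ-KO and -4.03 in WT), as did Pigf (-2.33 in MZ-KO and -2.69 in WT) and Pigp (-0.92 in MZ-KO and -1.0 in WT). Of these, Dpm1, Pigc, Pigf, Pigh and Pigp overlap other annotated genes whose reads they may share.

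Other GPI-anchored surface proteins moved in both directions between the stages. From early to late embryos 4 of 11 rose and 6 fell in MZ-KO, where 48.3% of all genes were called higher and 33.3% lower. In WT 1 of 10 rose and 6 fell, where 46.6% of all genes were called higher and 38.4% lower. The riser in WT was Folr1, which encodes a folate receptor and overlaps Anapc15. It averaged 39.4 ± 6.9 FPKM in MZ-KO and 52 ± 5.36 in WT late embryos (SD, n = 6 each), a stage difference of 5.19 in MZ-KO and 5.42 in WT. Izumo1r, the egg's receptor for the sperm protein Izumo, fell in both (-4.27 in MZ-KO and -4.12 in WT), and so did Ly6e (-3.18 in MZ-KO and -2.87 in WT). The complement regulator gene Cd55 fell too (-2.53 in MZ-KO and -3.03 in WT).

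Between genotypes in late embryos, 2 of 7 tested GPI-anchored genes, Efna1 and Tex101, were called higher in MZ-KO and 0 lower. Of all genes tested 18.5% were called higher and 13.4% lower. Efna1 reached FPKM 1 in 6 late MZ-KO and 2 late WT embryos and Tex101 in 5 late MZ-KO and 2 late WT embryos, so both entered the test mainly through MZ-KO, and the count says nothing about the list. Efna1, an ephrin ligand, averaged 5 ± 1.9 FPKM in MZ-KO and 0.545 ± 0.579 in WT late embryos (SD, n = 6 each), a difference of 1.97 (adjusted p = 0.000385). Tex101, a germ cell surface protein gene, averaged 15 ± 11.7 FPKM in MZ-KO and 0.92 ± 1.49 in WT late embryos (SD, n = 6 each), a difference of 2.74 (adjusted p = 0.0128), which no longer passed without a filter (adjusted p = 0.0536). The difference of Folr1 was -0.41 (adjusted p = 0.0515). With median-ratio scaling 2 genes of this list were called higher in MZ-KO and 1 lower.

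Alkaline phosphatases also need zinc, which is loaded in the secretory pathway. Of the listed zinc transporter genes, not all of which act in this pathway, 4 of 5 rose and 0 fell from early to late in MZ-KO. In WT 2 of 3 rose and 0 fell. Of all genes tested 48.3% were called higher in MZ-KO and 46.6% in WT, and with so few genes the counts are not set apart from these shares. Slc30a1, whose product acts at the plasma membrane and not in the secretory pathway, rose by 1.51 in MZ-KO and 2.74 in WT. It is counted among the rises of both genotypes. Slc30a5, whose product loads zinc into alkaline phosphatases in mammalian and chicken cells, rose by 1.25 in MZ-KO and 1.06 in WT. Slc30a6, the partner of Slc30a5, rose by 1.69 in MZ-KO. In WT it did not pass the filter between the stages and was not tested. Its early mean was 0.0803 FPKM in MZ-KO and 0.0675 FPKM in WT, below the late mean of either genotype. It averaged 2.59 ± 0.943 FPKM in MZ-KO and 1.22 ± 0.541 in WT late embryos (SD, n = 6 each), and was the 1 gene of 5 called between late genotypes (0.68, adjusted p = 0.0271), no longer called after median-ratio scaling (adjusted p = 0.0665), with no filter (adjusted p = 0.0786) or without any 1 of 5 of the embryos (adjusted p up to 0.0611). Under median-ratio scaling 0 of the list were called higher in late MZ-KO embryos and 2 lower. Slc30a6 reached FPKM 1 in 6 late MZ-KO and 3 late WT embryos, so it entered the test mainly through MZ-KO. Of all genes tested between late genotypes 18.5% were called higher and 13.4% lower, so the count says nothing about the list.

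Among genes that handle the substrates, Pdxk was lower in MZ-KO than in WT late embryos, as Alppl2 was. Pdxk encodes pyridoxal kinase, which makes pyridoxal phosphate, a substrate of the tissue-nonspecific enzyme. It averaged 0.002 ± 0.0049 FPKM in MZ-KO (SD, n = 6) and 0.17 ± 0.151 FPKM in WT early embryos (SD, n = 8). In late embryos it averaged 34.5 ± 6.05 FPKM in MZ-KO and 69.6 ± 8.33 FPKM in WT (SD, n = 6 each), a difference of -1.0 (SE 0.15, adjusted p = 0.000392). Its rise between the stages was 5.13 in MZ-KO and 5.92 in WT, and it overlaps the annotated genes 4921516A02Rik and Mir6908. Plpbp, a pyridoxal phosphate binding protein gene, rose between the stages by 3.20 in MZ-KO and 2.62 in WT. Slc20a1, a phosphate importer gene, fell between them (-1.34 in MZ-KO and -2.14 in WT). Plpbp and Slc20a1 overlap other annotated genes too. Of the 6 tested genes of this list, 1 was called higher in MZ-KO than in WT late embryos (Slc20a1, 0.61, limma adjusted p = 0.03) and 1 lower (Pdxk). Of all genes tested 18.5% were called higher and 13.4% lower, so the counts are not set apart from these shares. The call of Slc20a1 was lost with median-ratio scaling (adjusted p = 0.0594), with no filter (adjusted p = 0.0836) and without any 1 of 7 of the embryos (adjusted p up to 0.0677). Slc20a1 reached FPKM 1 in 5 late MZ-KO and 3 late WT embryos, so it entered the test more through MZ-KO.

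Few relatives in function were expressed. Of 9 ectonucleotidase genes and 7 acid phosphatase genes, 1 of each list was tested between late genotypes. Neither was called, although with median-ratio scaling the ectonucleotidase gene was called lower in MZ-KO. That gene was Entpd1, at -0.28 (adjusted p = 0.0933). Acp2, a lysosomal acid phosphatase gene, fell between the stages (-1.51 in MZ-KO and -1.15 in WT), and Entpd6 fell in MZ-KO (-0.65). In WT Entpd6 did not pass the filter between the stages and was not tested. Its WT mean was 0.876 ± 0.321 FPKM in early (SD, n = 8) and 0.295 ± 0.223 FPKM in late embryos (SD, n = 6). Between genotypes limma called 0 of 25 tested list genes in eggs and 0 of 28 in early embryos, with 3 and 6 at an unadjusted p below 0.05. Of all genes tested, 0.333% were called in eggs and 3.28% in early embryos. At an unadjusted p below 0.05 in limma stood 577 of 6607 genes in eggs and 1635 of 7675 in early embryos. The list counts are not set apart from these shares.

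**Figure D5:**
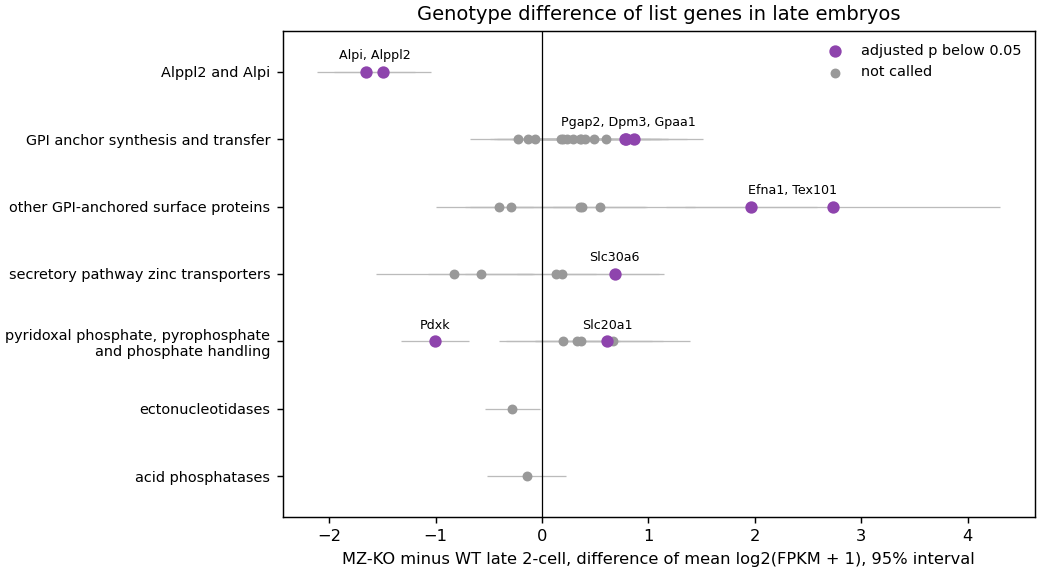
Difference of mean log2(FPKM + 1) between MZ-KO and WT late 2-cell embryos with 95% intervals for Alppl2, Alpi and the tested genes of the 6 lists, where purple points were called at an adjusted p below 0.05. Alppl2, Alpi and Pdxk are the called genes below 0, and the other called genes, such as Efna1 at 1.97, lie above it.

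The summed FPKM of 12 oocyte markers ran from 58.1 to 372 in MZ-KO and from 73.8 to 144 in WT late embryos, and that of 10 early 2-cell markers from 101 to 329.8 in MZ-KO and from 206 to 645 in WT late embryos. The highest oocyte sum was in late MZ-KO library 1, whose Alppl2 of 295.94 FPKM lay in the middle of its group. The median sum of the early 2-cell markers was 141 in MZ-KO and 104 in WT early embryos. In late embryos it was 156 in MZ-KO and 419 in WT, so this set does not mark the early stage here. The part of the oocyte and early 2-cell markers in the lower level of Alppl2 and Alpi in late MZ-KO embryos was not tested. Markers of intestinal epithelium, where Alpi and Akp3 are best known, summed to 0.384 to 2.99 in MZ-KO and 0.73 to 1.88 in WT late embryos, with Apoa1 and Fabp1 at 0 in both. Sums were 4.17 to 7.66 in MZ-KO and 5.41 to 11.8 in WT late embryos for cumulus and granulosa cell markers, 2.93 to 10.7 in MZ-KO and 1.32 to 5.26 in WT for blood and immune cell markers, and 7.6 to 13.5 in MZ-KO and 10.1 to 28.7 in WT for sperm markers.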

How the data were processed

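Poly(A)-primed cDNA of individual eggs and embryos was amplified with 15 cycles of PCR and tagged with Tn5, per the labels' protocols, a method that does not mark the strand. TopHat2, DESeq, DESeq2 and mm10 are named in the submitters' processing notes. The authors deposited FPKM values per library, beside a comparison of their own, given as log2 fold changes, standard errors and adjusted p-values. Its groups were inferred from its correlation with the FPKM differences over 8772 genes (0.953 for late embryos, 0.19 for early embryos, 0.008 for eggs). Low FPKM values were whole multiples of 1 read, within 0.1 read, in 99.2 to 99.9% of cases per library when the length was the genomic span, so introns count in gene length. Besides the genes marked above, Pgap2, Cd55, Slc30a1, Acp2 and Entpd6 overlap other annotated genes whose reads they may share. Columns name the group but no replicate, so libraries were numbered in column order, which pairs nothing. The column header of the late MZ-KO group has transposed letters and was identified by the authors' mean column.

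Values were analysed as log2(FPKM + 1), which understates the change of low genes, with limma 3.58.1 in R 4.3.3 (intensity trend, robust moderation with statmod 1.5.0). Each fit used the groups compared. A gene was tested if it reached FPKM 1 in a number of libraries equal to the size of the smaller group. Calls were made at an adjusted p below 0.05 (Benjamini-Hochberg). The script was tested on simulated data. Members under the filter got exact two-sided permutation tests over samples, adjusted over 8 tests (scipy 1.17.1, numpy 2.4.6, pandas 2.3.3, Python 3.11.15). Promoters came from RefSeq, coding identities from the GENCODE M21 transcripts aligned with Biopython 1.88, and figures from matplotlib 3.10.9. Of the gene identifiers, 54409 were in that annotation.

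The members, the gene lists and the tests were chosen with earlier results of these data known. Named genes are the members, the genes within 100 kb of the cluster, the 5 genes most correlated with Alppl2 and with Alpi, and the 3 largest called rises and falls per list and comparison; Entpd1 was named after its values were seen. A gene that this rule names is not reported here. Alternatives were a pseudocount of 0.1, no filter, a filter of FPKM 5, median-ratio scaling, 1 fit over all 6 groups and leaving out each library.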

Additional observations from a re-analysis of the deposited data

Results flagged for a closer look

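Single libraries stood apart from their group, by a gap to the nearest library that took up most of the group's range. In all, 15 groups of values were tested this way. The chance rate of about 1 in 20 holds for normally distributed values. It does not hold where most libraries are at 0, as for Akp3 in the MZ-KO groups and Alpi in early WT embryos. Early WT library 3 did so for 3 genes of the family: Alppl2 at 12.344 FPKM, Alpi at 0.24 FPKM and Akp3 at 1.419 FPKM. Early MZ-KO library 3 stood apart for Alpi at 0.901 FPKM, which rests on 63 reads, and it also had the highest Alppl2 of its group. Late WT library 2 stood apart for Alppl2 at 1045.961 FPKM. Akp3 was above 0 in 1 library each of the early MZ-KO group (library 2, 0.377 FPKM) and the late MZ-KO group (library 6, 0.221 FPKM).

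The genotype difference was tested between late and early embryos and differed for Alppl2 (-1.56, adjusted p = 0.0189 in limma) and for Alpi (-1.76, adjusted p = 2.04e-05 in limma). Alpi was at 0 in 7 of the 14 early libraries, so its value largely repeats the late difference of -1.65. For Alppl2 all 6 late MZ-KO embryos were below all 6 late WT embryos, while the early groups overlapped. The share of all genes with such a separation is not given here, so it is not shown to be particular to Alppl2. In this contrast limma called 20.4% of all genes tested.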

How the results depend on the processing

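The late genotype differences of Alppl2, Alpi and Alpl and the late minus early difference of Alpi kept their direction and their call under every alternative that gave a value and without any 1 library. The late groups of Alpl did not overlap. A pseudocount or the loss of 1 embryo cannot undo that, so in its permutation test these alternatives add no support. The late minus early difference of Alppl2 kept its size but not its call with a pseudocount of 0.1 (-1.59, adjusted p = 0.0587) and with no filter (-1.56, adjusted p = 0.0514), and ran from -1.80 to -1.37 without single libraries. Differences that were not called changed sign without 1 library: Alppl2 in early embryos (-0.13 to 0.31), Alpi in early embryos (-0.041 to 0.14) and Alpl in eggs (-0.033 to 0.052). The late minus early difference of Pdxk was -0.79, and 0.22 with a pseudocount of 0.1 (adjusted p = 0.713). The cause of these changes was not tested. Counts of called genes moved in eggs, with 8 (pseudocount of 0.1), 6 (no filter), 14 (FPKM 5) and 6 to 38 without single eggs, against 22. In early embryos the count was 56 with no filter, 430.0 in 1 fit over all groups and 105 to 351 without single embryos, against 252. A filter of FPKM 5, which tests fewer genes, gave 1502 of the late genotype calls, 1194 of the late minus early calls, and 3306 (MZ-KO) and 3554 (WT) of the stage calls, which were 14095 (MZ-KO) and 15824 (WT) with no filter. No paired analysis was possible because the columns carry no replicate numbers. Depth limits Alpi and Akp3 in early embryos and all 4 genes in eggs, where a value often rests on fewer than 20 reads.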
